A study of Mus musculus with 16 samples.

Results

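Brain transcripts were compared between mice homozygous for a knock-in allele of Pts and wild-type mice. The samples were chosen by their titles, which name tissue and genotype, and gave 4 wild-type and 4 homozygous brain arrays out of 16 arrays in all. The other 8 arrays hold liver of the same animals. All animals were male C57BL/6J mice aged 17 weeks. The allele is labelled Pts-R15C-ki for every animal, and the genotype is wild type or homozygous. The name gives the protein change R15C, an altered amino acid, and whether anything else differs at the targeted locus was not examined. The labels give 1 mouse identifier per brain array, and a wild-type and a homozygous animal with the same replicate number are different mice.

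Pts encodes pyruvoyl-tetrahydropterin synthase, which acts after GTP cyclohydrolase 1 (Gch1) and before sepiapterin reductase (Spr) in the synthesis of tetrahydrobiopterin. Tetrahydrobiopterin is the cofactor with which tyrosine hydroxylase and tryptophan hydroxylase start the synthesis of dopamine, noradrenaline and serotonin, and with which nitric oxide synthases make nitric oxide. In the brain, severe loss of the cofactor is known to deplete these monoamines. The comparison asked which brain transcripts differ in animals that carry the altered enzyme.

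Values are log2 normalized signals, and a difference is the mean homozygous log2 signal minus the mean wild-type one, followed by its fitted standard error (SE), over 4 arrays per genotype. A probe was tested where it was detected on at least 4 of the 8 brain arrays, which kept 13862 probes of 9562 genes. It passed where its p-value, adjusted over all tested probes by the Benjamini-Hochberg method after a limma fit, was under 0.05.

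The 8 arrays fell into a bright and a dim set, defined here from the 75th percentile of the unnormalized signal. The bright set held wild-type 1 and 3 and homozygous 1 and 2, with a 75th percentile between 302 and 343. The dim set held wild-type 2 and 4 and homozygous 3 and 4, between 241 and 271. The first principal component held 51.7% of the variance and separated the sets, each of which contained 2 arrays of each genotype. Wild-type 1 and wild-type 2 stood apart on the second component, with 14.6% of the variance, at -14.2 and -21.7 against 0.03 to 10.1 on the other 6 arrays. For gene lists in which these 2 arrays stood out, the median is given with and without them, and for some single genes the difference. Correlations between arrays ran from 0.971 to 0.993, and 13241 to 14576 probes were detected per array. Neuron, oligodendrocyte and astrocyte markers were measured (7 of 9, 10 of 12 and 9 of 9 genes on the array passed the detection filter), while 0 of 6 pituitary and 2 of 9 hepatocyte markers did.

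**Figure D1:**
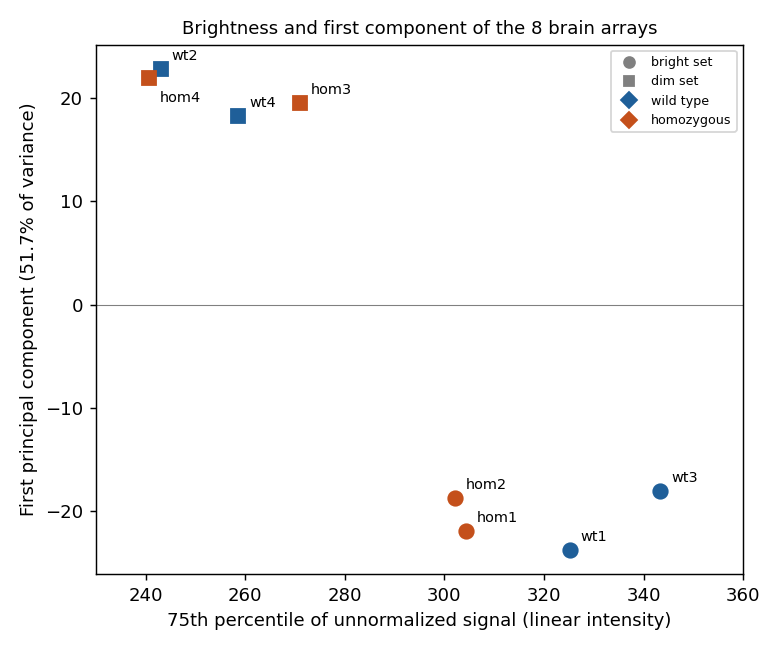
Each point is 1 brain array, placed by the 75th percentile of its unnormalized signal (horizontal, linear intensity) and its first principal component (vertical, 51.7% of variance); circles are the bright set, squares the dim set, blue wild type and orange homozygous. The bright arrays lie at 302 or above and the dim arrays at 271 or below, and each set holds 2 arrays per genotype.

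Genotype was accompanied by few differences that passed. Of 13862 probes, 0 rose (0%) and 2 fell (0.0144%): a probe of Tmem25 and a probe of Alg9. With brightness as a block, which removes the mean difference between the sets, 5 passed (0.0361%): 1 rose (0.00721%) and 4 fell (0.0289%). The additional 3 were Cryab and H2ax, which were lower, and the dimmer probe of Pts, which was higher. All 5 lie on the chromosome of Pts, chromosome 9, within 10 Mb of it. Without the block, 439 probes (3.17%) had an unadjusted p under 0.05, of which 219 were higher (1.58%) and 220 lower (1.59%). With the block, 1047 probes (7.55%) had an unadjusted p under 0.05. The genotype groups did not overlap for 286 probes (2.06%), 160 higher (1.15%) and 126 lower (0.909%). On 1 probe per gene, the brightest, 1 of 9562 genes passed (0.0105%) and 302 had an unadjusted p under 0.05 (3.16%). For 202 genes (2.11%) the genotypes did not overlap, 123 higher (1.29%) and 79 lower (0.826%).

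Differences in most probes were small against their error. The median size of the difference was 0.0847 and the median 95% interval extended 0.325 to each side, or 0.230 with brightness as a block. The interval lay within 1 on the log2 scale for 98.5% of probes and within 0.5 for 67.4%. That second share was 53.0% in the 3466 probes with the lowest signal and 80.7% in the 3466 with the highest. Differences smaller than these intervals were not detectable in a single gene with 4 animals per genotype, and larger ones could also fail to pass. The intervals are not adjusted for the number of probes. Cryab, for example, differed by -0.99 (SE 0.13) and had an adjusted p of 0.0645 in the limma fit without the block. The difference exceeded 1 for 20 probes.

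Tmem25, which encodes an immunoglobulin-superfamily membrane protein of neurons, had the largest difference of all tested probes. Its signal was 11.13, 10.74, 11.22 and 11.48 on wild-type arrays 1 to 4, and 4.35, 4.42, 4.28 and 4.42 on homozygous arrays 1 to 4. The groups were far apart, and the probe was well above background on 4 wild-type and 0 homozygous arrays. It fell by 6.78 (SE 0.15) with an adjusted p of 6.93e-09. Set against the lowest detected signal of each homozygous array, this is at least 77.0-fold lower. Both values depend on the background correction: the difference was -4.17 with no background subtraction and -4.38 with the authors' values. The difference was -6.79 in the bright set and -6.76 in the dim set. Tmem25 has 2 further probes, which read 5.94 to 6.49 and 5.72 to 6.18 in wild type and 5.71 to 6.12 and 5.13 to 5.80 in homozygous brain. Their differences of -0.18 (SE 0.15) and -0.39 (SE 0.17) did not pass, so the loss of signal was seen on 1 of 3 probes. Probe sequences were not analysed here, and for Tmem25, Alg9, Saraf and Srpr it was not tested whether the probe covers a base that differs between the animals.

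Alg9, an alpha-mannosyltransferase that builds the lipid-linked precursor of N-glycans in the endoplasmic reticulum, gave a similar pattern at lower signal. One probe read 6.00, 5.94, 5.93 and 5.80 on the wild-type arrays and 4.52, 4.39, 4.67 and 4.83 on the homozygous arrays. It was well above background on all 4 wild-type arrays and on 0 homozygous arrays. It fell by 1.32 (SE 0.12) with an adjusted p of 0.00407, or 0.00171 with the block. By the same bound it was at least 2.06-fold lower. The other probes read 6.91 to 6.99 against 6.62 to 6.73, without overlap, and 5.24 to 5.73 against 5.13 to 5.72. Their differences of -0.27 (SE 0.09) and -0.19 (SE 0.16) did not pass. The call on the first probe was not made with the authors' normalized values (-0.43, adjusted p = 0.0599), with no background subtraction (-0.36, adjusted p = 0.134) nor without wild-type 1 and 2 (-1.27, adjusted p = 0.207).

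Cryab encodes alpha B-crystallin, a small heat shock protein that in brain is abundant in oligodendrocytes and astrocytes. Its signal was 9.74, 9.75, 9.46 and 9.56 in wild type and 8.54, 8.92, 8.56 and 8.53 in homozygous brain. Every homozygous array lay below every wild-type array, with homozygous 2 the closest. The difference was -0.99 (SE 0.13, adjusted p = 0.0645), and with brightness as a block it passed (SE 0.11, adjusted p = 0.0284). Over 24 alternative settings of the processing, Cryab passed in 6, Alg9 in 18 and Tmem25 in 23.

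H2ax, the histone variant phosphorylated beside DNA breaks, read 8.24, 7.66, 8.22 and 7.96 in wild type and 7.49, 7.38, 7.13 and 7.13 in homozygous brain. All homozygous arrays lay below all wild-type arrays, and within each genotype the bright arrays were the higher ones. The difference of -0.73 had an adjusted p of 0.913 without the block (SE 0.15) and 0.0327 with it (SE 0.09).

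Pts itself was measured by 2 probes. Where they lie relative to the altered codon was not analysed here, and they were not used to check the genotype labels. The dimmer probe read 6.37, 6.94, 6.39 and 6.93 in wild type and 7.07, 7.13, 7.66 and 7.53 in homozygous brain. All homozygous arrays lay above all wild-type arrays, and in both genotypes the dim set read higher than the bright set. The difference was 0.69 (SE 0.19; exact permutation p = 0.0286, two-sided, the smallest that 4 against 4 arrays allow), 0.72 in the bright set and 0.67 in the dim set. It was 0.36 with no background subtraction and 0.38 with the authors' values. Its adjusted p was 1 in the fit across all probes and 0.0192 with brightness as a block (SE 0.07). The brighter probe read 8.45, 8.58, 8.28 and 8.75 against 8.66, 8.72, 9.21 and 9.00, and the groups overlapped. Its difference was 0.39 (SE 0.15; exact permutation p = 0.0857, two-sided; adjusted p = 0.438 with the block).

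**Figure D2:**
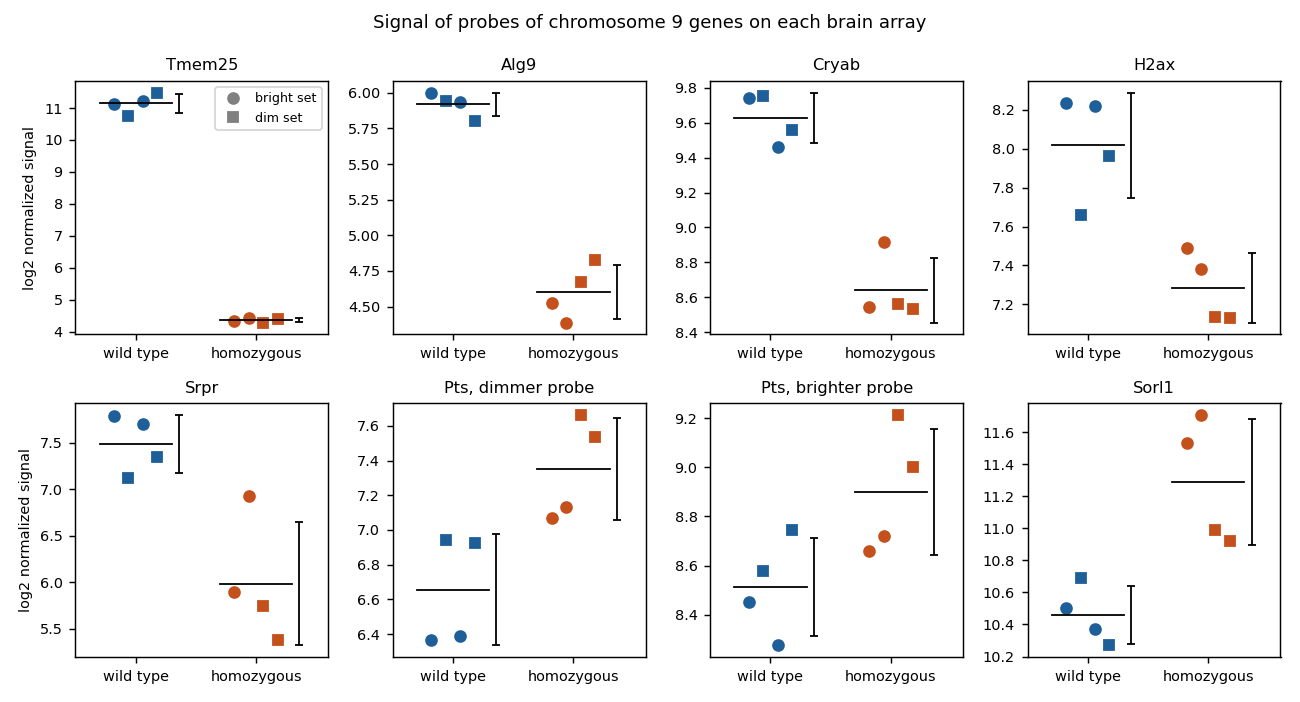
Each panel shows the log2 normalized signal (vertical, separate scale per panel) of 1 probe of a chromosome 9 gene on the 4 wild-type (blue) and 4 homozygous (orange) arrays; circles are the bright and squares the dim set, the line is the group mean and the bar beside it 1 SD. Tmem25 drops from above 10.7 to below 4.5, homozygous 2 stands above the other homozygous arrays for Cryab and Srpr, and the groups overlap for the brighter Pts probe.

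Values of genes near Pts were set beside those of the rest of the genome. Among the 62 tested probes of genes within 5 Mb of Pts, 17.7% had an unadjusted p under 0.05 and 16.1% did not overlap between genotypes, against 3.17% and 2.06% of all probes. Between 5 and 10 Mb the shares were 14.9% and 9.57% of 94 probes, and between 10 and 20 Mb 5.88% and 4.20% of 119 probes. On the rest of chromosome 9 they were 1.73% and 0.648% of 463 probes, and on other chromosomes 2.98% and 1.93% of 12323 probes. The differences near Pts ran both ways: 3 probes within 5 Mb lay higher and 7 lower without overlap, and 5 and 4 between 5 and 10 Mb. The median difference was 0.02 within 5 Mb and -0.01 between 5 and 10 Mb.

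Several neighbours of Pts ranked next without passing. Sorl1, a sorting receptor of the amyloid precursor protein, read 10.50, 10.69, 10.37 and 10.27 in wild type and 11.53, 11.71, 10.99 and 10.92 in homozygous brain. The homozygous arrays were all higher, the 2 bright ones most (difference 0.83, SE 0.19). Fxyd2, a regulatory subunit of the sodium pump, differed by 0.75 (SE 0.16) and Arcn1, the delta subunit of the coatomer coat, by 0.64 (SE 0.13), both without overlap. Atm, the kinase that signals DNA breaks, read 6.60, 5.28, 6.72 and 5.91 against 4.41, 4.83, 5.03 and 5.02. Its wild-type arrays were widely spread and its homozygous arrays were all lower (difference -1.31, SE 0.29); within the bright set alone it passed (-2.04, SE 0.16, adjusted p = 0.0143). Only 2 of the homozygous arrays detected Atm, against 4 of wild type. Bco2, a carotenoid-cleaving enzyme beside Pts, was not well above background on any homozygous array and had means of 5.16 and 4.71, at least 1.21-fold lower, and it did not pass. Dnaja4, a J-domain cochaperone, differed by -0.52 (SE 0.13).

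Srpr, the alpha subunit of the signal recognition particle receptor, lies between 10 and 20 Mb from Pts. It read 7.78, 7.12, 7.70 and 7.34 in wild type and 5.89, 6.93, 5.74 and 5.38 in homozygous brain. Homozygous 2 stood close to the wild-type range and the other homozygous arrays well below it. The difference was -1.50 (SE 0.30, adjusted p = 0.913), and without homozygous 2 it was -1.81 and passed (SE 0.19, adjusted p = 0.0252).

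**Figure D3:**
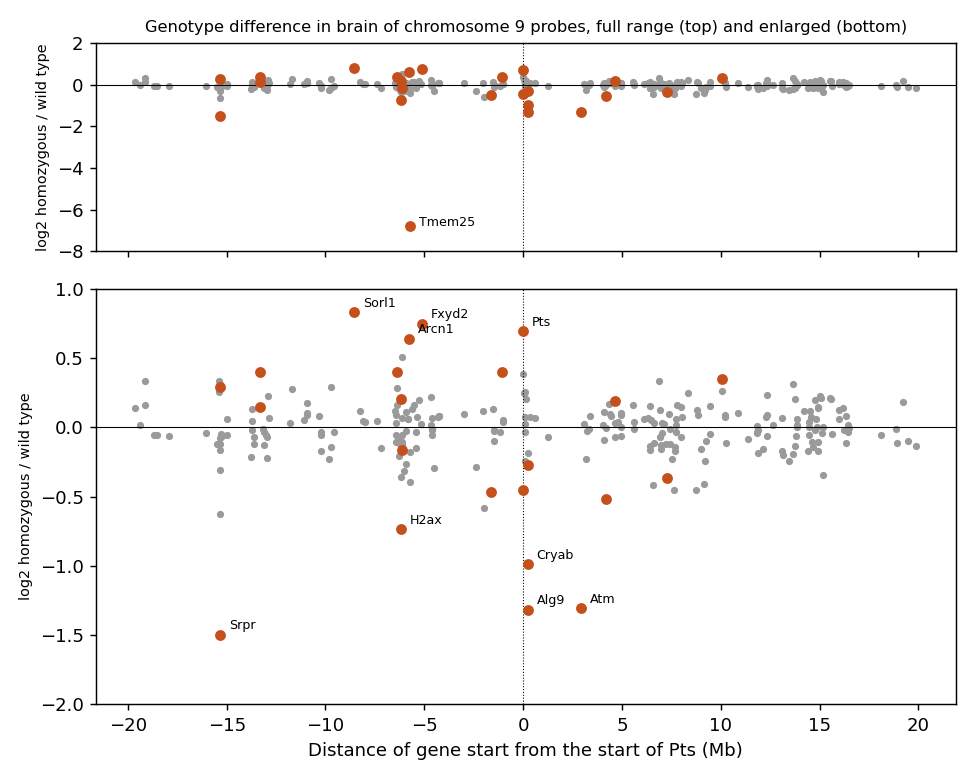
Each point is a tested chromosome 9 probe within 20 Mb of Pts, placed by the distance of its gene from Pts (horizontal, Mb) and its genotype difference (vertical, log2 homozygous over wild type), on the full range above and enlarged below; orange marks probes whose genotype groups do not overlap. Tmem25 lies at -6.78, non-overlapping probes lie on both sides of 0, and Srpr at -1.50 is farther than 10 Mb from Pts.

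More than 10 Mb from Pts, 0 probes passed with or without the block, and 367 of 12323 on other chromosomes (2.98%) had an unadjusted p under 0.05. Among named genes the highest-ranked of these were Edn1, the vasoconstrictor peptide endothelin-1, at 6.45, 6.56, 6.26 and 6.25 against 5.66, 5.36, 5.86 and 5.45 (difference -0.80, SE 0.14, adjusted p = 0.55), and Phka1, a subunit of phosphorylase kinase. Phka1 was above background in 4 wild-type and 0 homozygous brains and was at least 1.36-fold lower. Mkks, a chaperonin-like protein of Bardet-Biedl syndrome complexes, read 6.64, 6.86, 6.96 and 6.68 against 6.01, 5.94, 5.75 and 4.71, with homozygous 4 lowest and detection on 3 homozygous arrays (difference -1.18, SE 0.26). H2-Q7 had detection in 0 homozygous brains and was at least 1.46-fold lower. Zcchc3, detected on 2 homozygous arrays, and Stard5 differed by -0.71 and -0.52. On the higher side, Defb11, Zfp296 and BC048644 were above background in 0 wild-type and 4 homozygous brains, and were at least 1.33-, 1.31- and 1.16-fold higher. Evi2, detected on 2 wild-type arrays, Ttpal, Ctu1 and Mypop differed by 0.47 to 0.54. Each of these but Edn1 had an adjusted p of 0.913 or more.

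One probe outside chromosome 9 passed only when arrays were left out, and is named here after its values were seen. Saraf, an inhibitor of store-operated calcium entry on chromosome 8, read 11.25, 9.70, 11.13 and 11.15 in wild type and 9.59, 9.60, 9.79 and 9.82 in homozygous brain. Wild-type 2 lay within the homozygous range, and the other 3 wild-type arrays lay more than 1 above it. The difference was -1.11 (SE 0.30, adjusted p = 1) over all arrays, and -1.48 (SE 0.11, adjusted p = 0.00261) without wild-type 2.

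On 1 probe per gene, the genes that make and recycle tetrahydrobiopterin showed no called change. The dimmer Pts probe, which passed with brightness as a block, is not the one used in this list. Of 8 genes on the array 7 were tested, with Pts among them by its brighter probe. Of the 7, 0 passed, 4 were higher and 3 lower. The median difference was 0.05 beside 0.00487 over all 9562 genes, of which 51.8% were higher. The summed signal of the 7 genes did not overlap, at 2577 to 2775 in wild type and 2839 to 3195 in homozygous brain. Their mean level, relative to all 8 arrays, did overlap, with homozygous 1 at -0.05 and wild-type 2 at 0.0038. Gch1, the entry enzyme, differed by 0.07 (95% interval -0.33 to 0.47) and Spr by 0.05 (-0.26 to 0.35). The recycling enzymes differed by 0.22 for Qdpr, dihydropteridine reductase (-0.03 to 0.47), and by -0.05 for Pcbd1 and -0.02 for Pcbd2, the pterin dehydratases. Qdpr read 10.11, 10.04, 10.15 and 9.93 against 10.28, 10.10, 10.30 and 10.44, and the groups overlapped at 1 homozygous array.

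Of the enzymes that use the cofactor, 0 of 4 tested genes passed. Th, tyrosine hydroxylase, read 6.78, 6.67, 6.31 and 6.57 in wild type and 6.50, 6.59, 6.45 and 6.70 in homozygous brain, all within the wild-type range (difference -0.02, 95% interval -0.30 to 0.26). Tph2, the tryptophan hydroxylase of serotonin neurons, read 7.48, 7.29, 7.77 and 7.53 against 7.82, 7.39, 7.55 and 7.62 (difference 0.08, -0.22 to 0.38). The neuronal and endothelial nitric oxide synthases, Nos1 and Nos3, differed by -0.05 (-0.36 to 0.25) and 0.04 (-0.24 to 0.33). Agmo, Nos2 and Tph1 did not pass the detection filter. Because RNA came from brain in bulk, a lower share of a cell type and less RNA per cell could not be told apart in any gene here.

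Among 10 tested genes of monoamine synthesis, transport and breakdown 0 passed and 3 were higher, with a median of -0.05. Ddc, the decarboxylase after Th and Tph2, the vesicular transporter Slc18a2, the dopamine transporter Slc6a3 and the serotonin transporter Slc6a4 all had intervals that included 0. Sult1a1, a sulfotransferase, had the widest difference: 8.66 and 8.70 on wild-type 1 and 2, and 7.27 to 7.69 on the other 6 arrays (difference -0.52, 95% interval -1.18 to 0.15; 0.10 without wild-type 1 and 2).

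**Figure D4:**
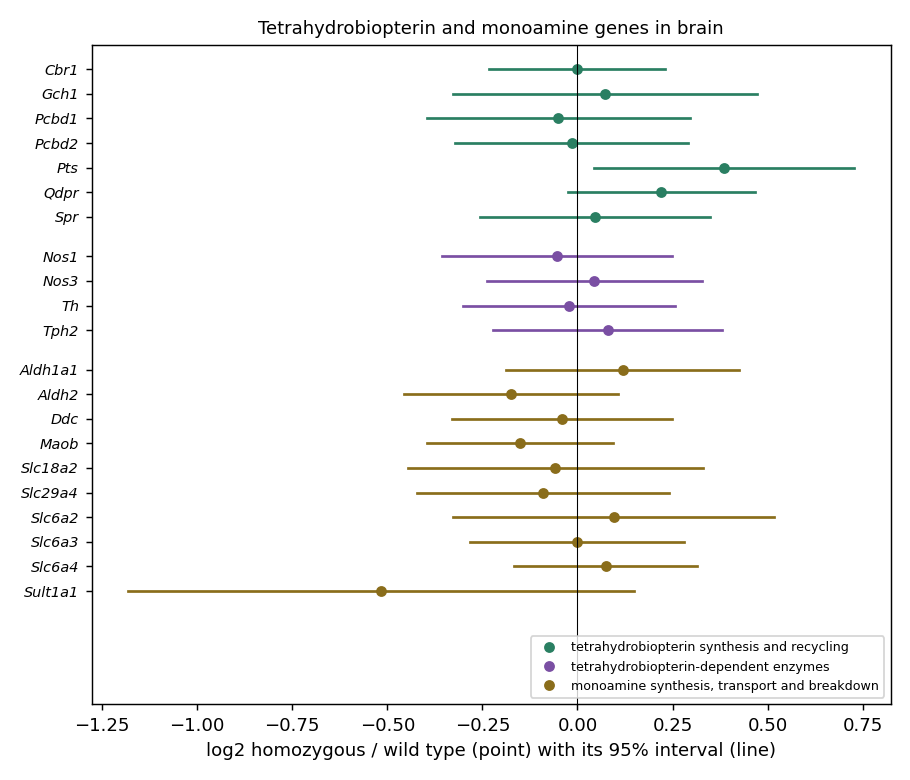
Points are genotype differences (horizontal, log2 homozygous over wild type) and lines their 95% intervals for each tested gene of tetrahydrobiopterin synthesis and recycling (green), of the enzymes that use it (violet) and of monoamine handling (brown). All intervals except that of the brighter Pts probe (0.04 to 0.73) include 0, and Sult1a1 has the widest.

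No receptor of the monoamines passed. In the list of dopamine receptors and striatal neurons 0 of 12 tested genes passed (median 0.04), with Drd1, the D1 receptor, at 0.11 (SE 0.17) and Drd2, the D2 receptor and a neighbour of Pts, at -0.04 (SE 0.13). Among 8 serotonin and adrenergic receptors 0 passed and 1 did not overlap, where 2.11% of all genes did not. That gene was Htr3a, a subunit of the serotonin-gated ion channel that lies within 5 Mb of Pts. It read 5.14, 5.12, 5.21 and 5.12 in wild type and 4.88, 4.92, 4.56 and 4.37 in homozygous brain. The homozygous arrays were all lower, the dim ones most, and 2 of them were not above background (difference -0.47, SE 0.14, unadjusted p = 0.00613, adjusted p = 1).

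For glutamate and GABA transmission 0 of 21 genes passed (median 0.03), with Gad1, which makes GABA, at 0.16 (SE 0.10) and Gria4, an AMPA receptor subunit, at 0.39 (95% interval -0.01 to 0.80). Among 18 hypothalamic neuropeptide and energy balance genes 0 passed (median -0.00478). Avp, vasopressin, read 6.46, 6.77, 6.43 and 6.26 against 6.71, 6.73, 6.89 and 6.74, with overlap at wild-type 2 (difference 0.29, SE 0.12). Socs3, an inhibitor of cytokine and leptin signalling in this list, read 7.10 and 7.53 on wild-type 1 and 2 and 5.31 to 6.29 elsewhere (difference -0.94; -0.22 without these 2). Lists of the circadian clock (15 tested), oxidative stress response (14) and oxidative phosphorylation (28) also had 0 called genes, with medians of 0.03, 0.01 and 0.01.

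Another 4 lists were high on the same 2 wild-type arrays. The neutrophil and monocyte list had a mean level, relative to all 8 arrays, of 2.07 on wild-type 1 and 1.80 on wild-type 2, against -0.90 to -0.26 on the others. Of its 9 genes on the array 3 were tested: S100a8 and S100a9, the calprotectin subunits of neutrophils, and Lyz2, a lysozyme of myeloid cells. The other 6, among them Camp, Ngp, Mpo and Ccr2, did not pass the detection filter. The summed signal of the 3 genes was 248 to 1726 in wild type and 200 to 275 in homozygous brain.

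S100a8 read 10.16 and 9.69 on wild-type 1 and 2, 6.42 and 7.00 on wild-type 3 and 4, and 6.39, 6.16, 5.96 and 6.82 on the homozygous arrays. Outside the first 2 arrays the genotypes overlapped. The difference was -1.99 (SE 0.74) over all arrays and -0.38 without wild-type 1 and 2, and the median of the 3 genes went from -1.70 to -0.31. Whether cells of blood or genotype played a part in this was not tested.

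The list of glucocorticoid-responsive genes was at 0.61 and 0.54 on wild-type 1 and 2 and at -0.33 to -0.10 on the others. Of its 15 tested genes 0 passed and 3 were higher, with a median of -0.27 over all arrays and 0.13 without these 2. Without overlap, 1 gene was higher and 1 lower, beside 1.29% and 0.826% of all genes. The lower one was Tsc22d3, with a difference of -0.45 (SE 0.17) over all arrays and -0.15 without wild-type 1 and 2. Plin4, a lipid droplet protein, read 8.09 and 8.75 on wild-type 1 and 2 and 5.19 to 5.91 elsewhere. Its difference was -1.53 (SE 0.65) over all arrays and -0.13 without the 2 arrays. Fkbp5, a cochaperone of the glucocorticoid receptor, read 7.51 and 7.65 against 6.01 to 6.36. Its difference was -0.75 (SE 0.33) over all arrays and -0.05 without the 2 arrays.

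Hif3a, a hypoxia-inducible factor subunit in the same list, went the other way. It read 5.19, 5.07, 5.05 and 4.63 in wild type and 5.47, 5.42, 5.29 and 5.95 in homozygous brain, with detection on 3 wild-type arrays, and the groups did not overlap. The difference was 0.55 (SE 0.17, adjusted p = 1) and 0.69 without wild-type 1 and 2.

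The heat shock chaperones were at 0.27 and 0.32 on wild-type 1 and 2 and at -0.13 to -0.07 on the others. Of 15 tested genes 0 passed, 4 were higher and 11 lower, with a median of -0.18 that was -0.03 without these arrays. Hspa1a, the inducible chaperone of the HSP70 family, read 7.82 and 7.56 on wild-type 1 and 2, 6.69 and 6.47 on wild-type 3 and 4, and 6.06 to 6.66 in homozygous brain (difference -0.81, SE 0.28; -0.26 without the 2 arrays). Hspb1, a small heat shock protein, read 6.85, 8.11, 6.41 and 6.67 against 6.05, 6.29, 6.25 and 6.27 (difference -0.80, SE 0.31; -0.33 without). Hsph1, a nucleotide exchange factor of HSP70, differed by -0.43 (SE 0.15; -0.25 without). Hspa8, the constitutive HSP70 and a neighbour of Pts within 10 Mb, was higher at 0.29 (SE 0.12) on its brighter probe and -0.14 (SE 0.12) on the other.

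The promoters of Hspa1a, Hspb1 and Hsph1, chosen after their values were seen, are shown as examples of genes highest on the same 2 wild-type arrays. Other genes of the list were also highest on these arrays and are not shown, among them Ahsa1, Bag3 and Chordc1. Heat shock factor, the activator of such genes, binds inverted repeats that include the motif GAANNTTC. The windows run from 250 bases before to 50 bases after the gene start, 5′ to 3′ on the gene's strand, as given by RefSeq on GRCm38.p6, and capitals mark the motif, which reads the same on both strands. Hspa1a lies at chr17:34972107-34972406 on the minus strand, Hspb1 at chr5:135887669-135887968 on the plus strand and Hsph1 at chr5:149636287-149636586 on the minus strand.
Hspa1a: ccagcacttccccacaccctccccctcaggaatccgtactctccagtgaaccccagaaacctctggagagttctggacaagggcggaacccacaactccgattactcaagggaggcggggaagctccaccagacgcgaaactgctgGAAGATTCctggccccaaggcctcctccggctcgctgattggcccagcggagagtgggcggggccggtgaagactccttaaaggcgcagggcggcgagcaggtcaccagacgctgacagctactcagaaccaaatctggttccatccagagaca
Hspb1: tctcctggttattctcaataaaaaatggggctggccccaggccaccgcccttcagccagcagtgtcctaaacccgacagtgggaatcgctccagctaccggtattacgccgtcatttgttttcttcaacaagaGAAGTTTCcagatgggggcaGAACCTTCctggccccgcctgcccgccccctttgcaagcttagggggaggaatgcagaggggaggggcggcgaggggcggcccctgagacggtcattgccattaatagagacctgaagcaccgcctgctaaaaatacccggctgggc
Hsph1: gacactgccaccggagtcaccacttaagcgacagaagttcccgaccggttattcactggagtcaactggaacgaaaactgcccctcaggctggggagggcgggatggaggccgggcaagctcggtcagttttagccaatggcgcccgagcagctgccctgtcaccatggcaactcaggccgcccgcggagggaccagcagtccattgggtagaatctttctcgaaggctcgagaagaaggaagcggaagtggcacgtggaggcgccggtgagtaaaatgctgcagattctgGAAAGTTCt
Hspb1 holds 2 matches and the other promoters shown 1 each. Among the genes named but not shown, Ahsa1 holds 0 matches, Bag3 1 and Chordc1 2. Of the 15 tested genes of the list 13 had a promoter window and 9 of these held the motif, beside 9.04% of all 27025 genes with a window; by window the share is 7.86% of 32851. The list was chosen as heat shock chaperones, so its share of motifs is the same whatever these arrays read. A match is a description of the sequence and not a measured binding site. Whether the motif played a part in the levels on wild-type 1 and 2 was not tested.

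The list of endoplasmic reticulum stress and the integrated stress response was at 0.19 and 0.23 on wild-type 1 and 2 and at -0.10 to -0.04 on the others. Of 16 tested genes 0 passed and 13 were lower, with a median of -0.16 that was -0.01 without the 2 arrays. The summed signal of the 16 genes did not overlap, at 13636 to 16949 in wild type and 13078 to 13485 in homozygous brain. The mean level did overlap, at -0.0642 on wild-type 4 and -0.0635 on homozygous 4. Xbp1, a transcription factor of the unfolded protein response, read 11.05 and 11.35 on wild-type 1 and 2 and 10.23 to 10.82 elsewhere. Hyou1, an endoplasmic reticulum chaperone within 10 Mb of Pts, was higher instead, at 5.60, 5.51, 5.55 and 5.09 against 6.23, 6.31, 5.64 and 5.58 (difference 0.51, SE 0.19).

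**Figure D5:**
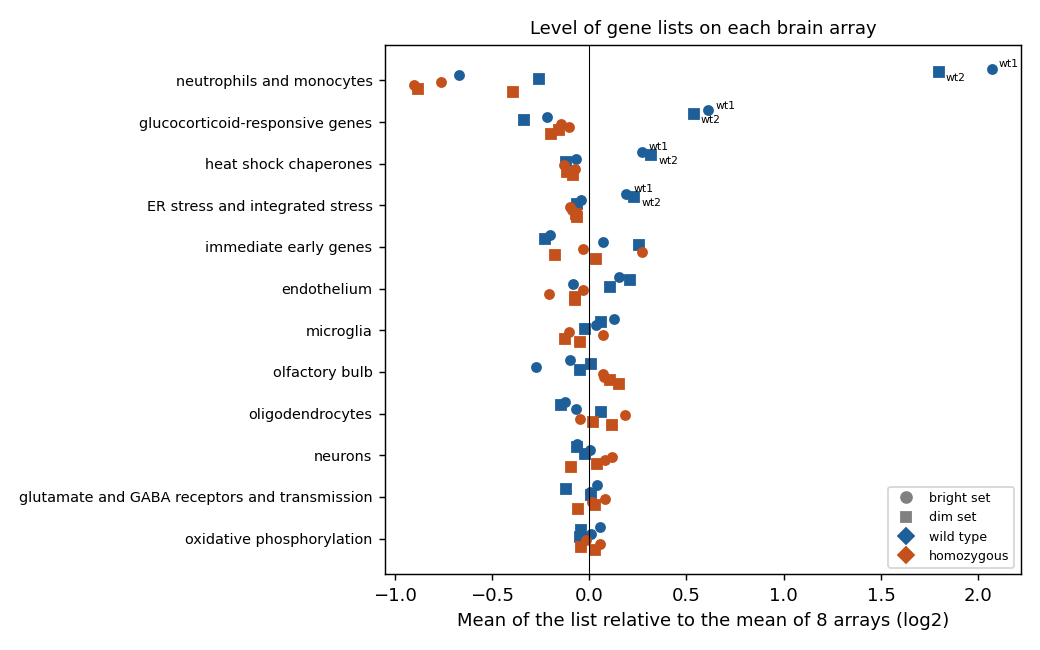
Each point is 1 array's mean level of a gene list relative to the mean of the 8 arrays (horizontal, log2), with the lists in rows, blue for wild type, orange for homozygous, circles for the bright and squares for the dim set. Wild-type 1 and 2 lie apart from the other 6 arrays in the top 4 rows, at 2.07 and 1.80 for neutrophils and monocytes, and the genotypes overlap in the rows of neurons and oxidative phosphorylation.

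Immediate early genes, which report recent neuronal activity, had 0 of 14 called and a median of 0.07, which was 0.32 in the bright set, -0.02 in the dim set and -0.06 without wild-type 1 and 2. Egr2 read 6.37, 6.60, 6.86 and 7.70 against 6.49, 7.61, 7.30 and 7.74, and the groups overlapped. The interferon response list had 0 of 13 called and a median of -0.08, which was 0.02 without wild-type 1 and 2.

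Of the 17 marker lists, which cover brain cells, regions, blood and liver, 0 held a called gene, and the pituitary list held 0 tested genes. The medians were 0.11 for neurons, 0.10 for oligodendrocytes, -0.02 for astrocytes and -0.15 for microglia. Without wild-type 1 and 2 they were 0.07, 0.02, -0.0047 and -0.10. Opalin, a myelin protein of oligodendrocytes, read 7.76, 8.46, 8.83 and 9.53 in wild type and 9.28, 9.07, 9.65 and 9.95 in homozygous brain. The lowest values were again wild-type 1 and 2 (difference 0.84, SE 0.33; 0.31 without them), while Mbp, the main myelin basic protein, differed by -0.03 (SE 0.16). In microglia, P2ry12, a purine receptor of resting cells, differed by 0.49 (SE 0.16) and C1qa, a complement subunit, by -0.48 (SE 0.20).

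Of 7 olfactory bulb markers on the array 5 were tested, while Eomes and Tbx21 did not pass the detection filter. This list was higher in homozygous brain for all 5 tested genes, and 0 passed. Its median was 0.19 (0.26 without wild-type 1 and 2) beside 0.00487 over all genes. Its mean level was -0.10, 0.01, -0.28 and -0.04 on wild-type arrays 1 to 4 and 0.07, 0.08, 0.11 and 0.15 on homozygous arrays 1 to 4, so on this mean the homozygous arrays lay above all the wild-type ones. The summed signal of the 5 genes overlapped, at 2674 to 3055 in wild type and 2899 to 3162 in homozygous brain. Sp8, a transcription factor of olfactory interneurons, read 5.71, 5.42, 5.50 and 5.22 against 6.10, 5.55, 5.88 and 6.06 (difference 0.44, SE 0.15), with overlap at homozygous 2. Whether the amount of olfactory bulb in the samples moved with other genes was not tested.

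The endothelial list had a median of -0.19 (-0.11 without wild-type 1 and 2). Of its 8 tested genes 6 were lower and 2 higher, by up to 0.43. Without overlap, 2 were lower, beside 0.826% of all genes, and 0 higher. Vwf, von Willebrand factor, read 7.74, 8.33, 7.41 and 7.53 against 7.25, 7.05, 6.88 and 7.01 (difference -0.71, SE 0.19; -0.42 without). Ly6c1 read 9.70, 9.64, 8.99 and 8.89 against 8.70, 8.75, 8.70 and 8.61 (difference -0.61, SE 0.19; -0.25 without). For both, wild-type 1 and 2 were the highest arrays. Neither passed.

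Whether the genotype difference itself differed between the bright and dim sets was tested as an interaction. It was called for 0 probes (0%), with a smallest adjusted p of 0.943, and 677 probes (4.88%) had an unadjusted p under 0.05. Mgat3, which adds the bisecting branch of N-glycans, ranked first, at -0.83 in the bright set and 0.26 in the dim set. Tomm22, a receptor of the mitochondrial import pore, read 9.77, 9.70, 9.73 and 9.63 in wild type, 8.72 and 8.77 on the bright and 9.53 and 9.56 on the dim homozygous arrays. Mgat3 passed in this test with no background subtraction (adjusted p = 0.0403) and with the authors' values (0.0154), and Tomm22 with no background subtraction (0.0425). Hba-a1, an alpha globin chain of red blood cells, passed with the authors' values (0.0135), at 0.66 in the bright and -0.33 in the dim set.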

How the data were processed

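Brain total RNA of 8 mice was measured on 1-colour Illumina bead arrays. Signals were deposited as unnormalized bead summary intensity (linear), with a detection p-value beside each, per the file headers. The authors also deposited normalized intensity values. Its normalization settings are not given in the sources used here; GenomeStudio 2011.1 is named per the submitters' processing notes, and no statistical test is named in the labels.

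Among 25697 probes, 23978 had 1 gene symbol, 1719 had none, and 23962 matched the RefSeq table of GRCm38.p6, used for symbols, for neighbourhood on a chromosome and for promoter sequences. The array tables name no build, so probes have no coordinates here. Brain signals were background-corrected with nec (offset 16), quantile-normalized within brain and put on the log2 scale with limma 3.58.1 in R 4.3.3. Probes with a detection p-value under 0.05 on at least 4 of 8 arrays were fitted (lmFit, eBayes), without a block, with Benjamini-Hochberg adjustment. Brightness as a block, sets taken singly, other corrections, filters, variance models and arrays left out were alternatives. A bound of "at least" a fold sets each array without detection to its lowest detected signal, or to the probe's own where that is higher. Named genes were all probes that passed with or without the block, the next 10 each way, up to 3 each way per list on 1 probe per gene (the brightest), 10 of the interaction and both Pts probes. The 16 gene lists, 17 marker lists and the comparison were chosen with earlier results of these data known. The fit was tested on simulated data. The deviations of same-numbered arrays correlated at r = 0.563, -0.457, -0.511 and 0.424. This r was positive where both arrays were of the same brightness set and negative where they were not. Brightness was left in these deviations, so they cannot show whether the numbers pair animals. The number of animals limits the precision.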

Additional observations from a re-analysis of the deposited data

Results flagged for a closer look

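In 6 of 172 groups of 4 arrays checked, 1 array lay far from the other 3; chance flags about 1 in 20 such groups. Cryab was 8.92 on homozygous 2 and 8.53 to 8.56 on the other homozygous arrays. Saraf was 9.70 on wild-type 2 and 11.13 to 11.25 on the other wild-type arrays. Phka1 was 5.08 on wild-type 2 and 5.39 to 5.42 on the others. Zfp296 was 5.41 on homozygous 2 and 5.14 to 5.18 on the others. Ttpal was 7.26 on homozygous 2 and 7.58 to 7.63 on the others. Stard5 was 5.08 on homozygous 3 and 5.44 to 5.50 on the others.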

How the results depend on the processing

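The count of 2 changed probes, both lower, was 1 with no background subtraction, with the authors' values and within the dim set, and in these the call was Tmem25. It was 0 when detection on all 8 arrays was required, which removed Tmem25 and Alg9 from the 11749 probes tested by limma, with 328 at an unadjusted p under 0.05. It was 5 with brightness as a block (1 rose, 4 fell) and 4 within the bright set, where Atm and Saraf were added and the fit rests on 2 arrays per genotype. Leaving out 1 array at a time gave 2 to 4, with 4 without homozygous 2, where Cryab and Srpr were added. Leaving out wild-type 1 and 2 gave 2, Tmem25 and Saraf. The fit with replicate number as a block gave 1, Tmem25, and whether the numbers pair animals is not known here. The interaction count of 0 was 2 with no background subtraction, 2 with the authors' values and 0 to 1 with 1 array left out; the 1, without wild-type 3, was Dao. The difference of the dimmer Pts probe was 0.36 with no background subtraction and 0.38 with the authors' values, and ran from 0.59 to 0.79 with 1 array left out (exact permutation p 0.0286 to 0.0857), and that of the brighter one from 0.28 to 0.47. Over named genes, 4652 of the repeated values kept their side of the threshold, 10 newly passed and 5 (all Alg9) no longer passed. Direction was compared only where a value passed in either fit, and there 0 reversed. Values that passed in neither could change sign, as Sult1a1 did from -0.52 to 0.10 without wild-type 1 and 2. Causes of these changes were not tested. Dim probes have wider intervals, and 4 animals per genotype limit every comparison.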

Other observations

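Some probes split the 8 arrays into 2 sets of at least 2 arrays each, with a gap of at least 1 on the log2 scale. The gap was also required to be wider than the range within either set. These probes are given as values, chosen after they were seen. There were 58 such probes: 39 split the bright from the dim set, 13 split wild-type 1 and 2 from the rest, 1 split the genotypes (Tmem25) and 5 split the arrays otherwise.

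Timmdc1, an assembly factor of respiratory complex I, split across genotype and brightness. It read 8.45, 6.13, 6.10 and 8.10 on wild-type arrays 1 to 4 and 6.07, 8.20, 8.17 and 5.76 on homozygous arrays 1 to 4. The livers of the same animals, normalized separately, split the same way: 9.11, 7.11, 6.62 and 9.11 in wild type and 6.91, 8.72, 8.92 and 6.89 in homozygous mice. Each genotype had 2 high and 2 low animals.

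Srpr showed homozygous 2 apart from the other homozygous animals in both tissues. In liver it read 7.78, 9.00, 7.49 and 7.63 on homozygous arrays 1 to 4 and 9.65 to 10.38 on the wild-type arrays.

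Of the 13 probes that split wild-type 1 and 2 from the rest, 12 were higher there and 1 was lower. Cd14, a receptor of myeloid cells for bacterial lipopolysaccharide, read 7.18 and 7.71 on these 2 and 4.92 to 5.44 elsewhere, and in liver 9.76 and 9.56 on the same animals and 4.40 to 5.31 elsewhere. Ccl12, a monocyte-attracting chemokine detected on 3 wild-type and 1 homozygous arrays, read 7.51 and 7.24, and Osmr, the oncostatin M receptor, 7.40 and 7.04, while the other 6 arrays stayed at or below 5.28 and 5.95. The probe that was lower was Erdr1, at 4.38 and 4.58, not above background, against 6.81 to 8.19.

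Among probes that split the bright from the dim set, Mt3, a metallothionein of brain, read 12.02 to 12.32 on the bright arrays, and 10.14 to 10.29 on the dim arrays. Retsat, retinol saturase, went the other way, at 7.25 to 7.37 on the bright arrays and 8.93 to 9.31 on the dim arrays.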
